A study of Rattus norvegicus with 12 samples.

Results

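The 10 genes described here encode proteins by which fat cells are recognised and hormones that fat cells release: Adipoq, Lep, Plin1, Cfd, Fabp4, Lpl, Retn, Lipe, Cidec and Sfrp5. They were chosen by symbol. All probe sets that the platform annotation gives to that gene alone, under its symbol or an older name of it, were taken. A probe set is a group of short probes on the array that together report 1 transcript. The annotation gave 11 such probe sets to 9 of the 10 genes, 2 each to Plin1 and Lipe and 1 to each other gene. The whole series held 14217 genes counted in this way. Retn, which encodes the adipokine resistin, was not analysed here.

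The mRNA was that of mesenteric lymph nodes (MLN) of 12 Wistar rat pups at day 21, 3 pups per group and 1 array per pup. Conjugated linoleic acid (CLA) was given as a mix of 80% of the c9,t11 and 20% of the t10,c12 isomer. Group A pups were born to dams on a 1% CLA diet for the last 2 weeks of gestation and were then nursed by dams on that diet for the 3 weeks of suckling, in all 5 weeks of CLA with milk as the route. Group B pups had the same 2 weeks in gestation and then CLA by a daily oral gavage for 3 weeks, also 5 weeks in all. Group C pups, from dams on standard diet, had CLA by daily gavage for the 3 weeks of suckling only, and group D pups, the reference diet group, had no CLA supplement at any time. No gavage of group A or group D is mentioned in the sources used here, so gavage itself and CLA by gavage cannot be told apart in groups B and C. No source used here gives the litter of a pup. The paper describes litters and groups of equal size, so each group may come from 1 dam. Effects of dam or litter then cannot be told apart from those of CLA. The p-values rest on the spread between the pups used.

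Mesenteric nodes lie embedded in the fat of the mesentery. White adipocytes store triacylglycerol in 1 large droplet coated by perilipin, take up fatty acids that lipoprotein lipase frees from circulating lipoproteins, and release them again through hormone-sensitive lipase. They also secrete hormones, the adipokines, of which adiponectin and leptin are the best known. PPARγ, with C/EBPα, switches on most of these genes when a fat cell forms. In bulk tissue, fewer fat cells and less RNA of a gene per fat cell cannot be told apart.

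Promoters are shown for the members called against group D, with all arrays or without the array of group D that stood apart, as far as the RefSeq promoter table (rat build GRCr8) holds them. Of the 10 genes 7 matched, and the promoters of Fabp4, Lpl and Lipe are not shown. Each window runs 5′ to 3′ along the gene, 250 bases before and 50 from the transcription start on, and capitals mark the letters CCAAT (or ATTGG, the same motif on the other strand) and TTNNGCAA, a form of the site for C/EBP proteins, searched on both strands. The Adipoq window lies at chr11:91240120-91240419 (minus strand), that of Cfd at chr7:10465447-10465746 (minus strand), that of Cidec at chr4:148137066-148137365 (minus strand) and that of Sfrp5 at chr1:250960463-250960762 (minus strand).
Adipoq: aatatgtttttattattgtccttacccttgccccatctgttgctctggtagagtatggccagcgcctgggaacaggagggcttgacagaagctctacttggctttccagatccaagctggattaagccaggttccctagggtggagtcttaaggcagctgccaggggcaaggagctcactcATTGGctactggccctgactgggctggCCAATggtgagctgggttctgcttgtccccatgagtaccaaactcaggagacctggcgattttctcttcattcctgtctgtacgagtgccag
Cfd: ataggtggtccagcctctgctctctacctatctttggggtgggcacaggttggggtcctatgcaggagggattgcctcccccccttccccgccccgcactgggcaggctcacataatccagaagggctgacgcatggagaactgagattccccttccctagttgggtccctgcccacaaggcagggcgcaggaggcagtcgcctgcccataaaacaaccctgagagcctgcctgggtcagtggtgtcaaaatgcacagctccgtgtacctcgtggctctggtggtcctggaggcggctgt
Cidec: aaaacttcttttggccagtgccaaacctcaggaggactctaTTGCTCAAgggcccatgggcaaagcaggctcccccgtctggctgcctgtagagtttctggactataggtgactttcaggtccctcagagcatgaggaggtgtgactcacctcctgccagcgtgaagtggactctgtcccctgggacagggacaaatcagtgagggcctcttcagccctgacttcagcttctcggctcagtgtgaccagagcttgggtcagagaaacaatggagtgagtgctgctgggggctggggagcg
Sfrp5: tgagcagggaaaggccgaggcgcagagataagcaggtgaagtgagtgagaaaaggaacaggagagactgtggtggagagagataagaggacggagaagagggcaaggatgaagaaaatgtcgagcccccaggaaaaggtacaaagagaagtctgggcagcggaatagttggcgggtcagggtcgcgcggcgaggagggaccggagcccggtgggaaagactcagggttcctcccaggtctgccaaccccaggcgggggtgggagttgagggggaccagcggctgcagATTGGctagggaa
CCAAT was found 2 times in the Adipoq window, at -69 to -65 and -42 to -38 from the start, and 1 time in that of Sfrp5, at 38 to 42. TTNNGCAA was found 1 time in the Cidec window, at -209 to -202, on the minus strand, and the Cfd window held neither. CCAAT was in 37.5% of the 33469 rat promoters listed there, and TTNNGCAA in 10.6%. TATAAA (14.2% of promoters), AGGTCA (16.2%) and 2 AGGTCA copies 1 base apart (0.0538%), the repeat that PPARγ with RXR can bind, were in none of the 4 windows.

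Values below are quantile-normalized log2 signal intensities, so that a difference of 1 is a 2-fold difference, and levels of different probe sets are not compared. A value of 0 is the floor of the scale, an intensity of 1. The background of an array, from 27 probe sets that match spikes left out of the hybridisation, lay between 2.33 and 3.20. A probe set was called at an adjusted p under 0.05 by limma with Benjamini-Hochberg adjustment over all 31042 probe sets tested. Of the markers of a lymph node, Cd3e of T cells (mean 10.25) and Ccl21 of the node stroma (mean 11.96) were above background in all 12 arrays. Of the 11 probe sets of fat cell genes, 9 were above background in all 12 arrays, Sfrp5 in 9 and Lep in 2. Of 7 markers of brown fat, Dio2 was above background in 0 arrays, Elovl3 in 2, Ucp1 in 5, Cox8b in 6 and Prdm16 in 9, whereas Cidea and Ppargc1a were above it in all 12.

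Replicate 3 of group D stood apart from its group. Its mean correlation over probe sets was 0.896 with its own group, against 0.931 with group B and 0.930 with group C. Over 7 smooth muscle markers, each taken relative to its average in the series, its mean lay at -0.23, whereas replicates 1 and 2 of group D lay at 2.50 and 2.55. All 3 comparisons with group D rest on the same 3 arrays. Calls among the members and counts in the related lists are therefore also given without this replicate where they change. The replicate was singled out by its likeness to groups B and C, so leaving it out favours differences from group D. Without it, the share of probe sets called lower rose from 0.00966% to 7.82% in group B and from 0.029% to 9.13% in group C.

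**Figure D1:**
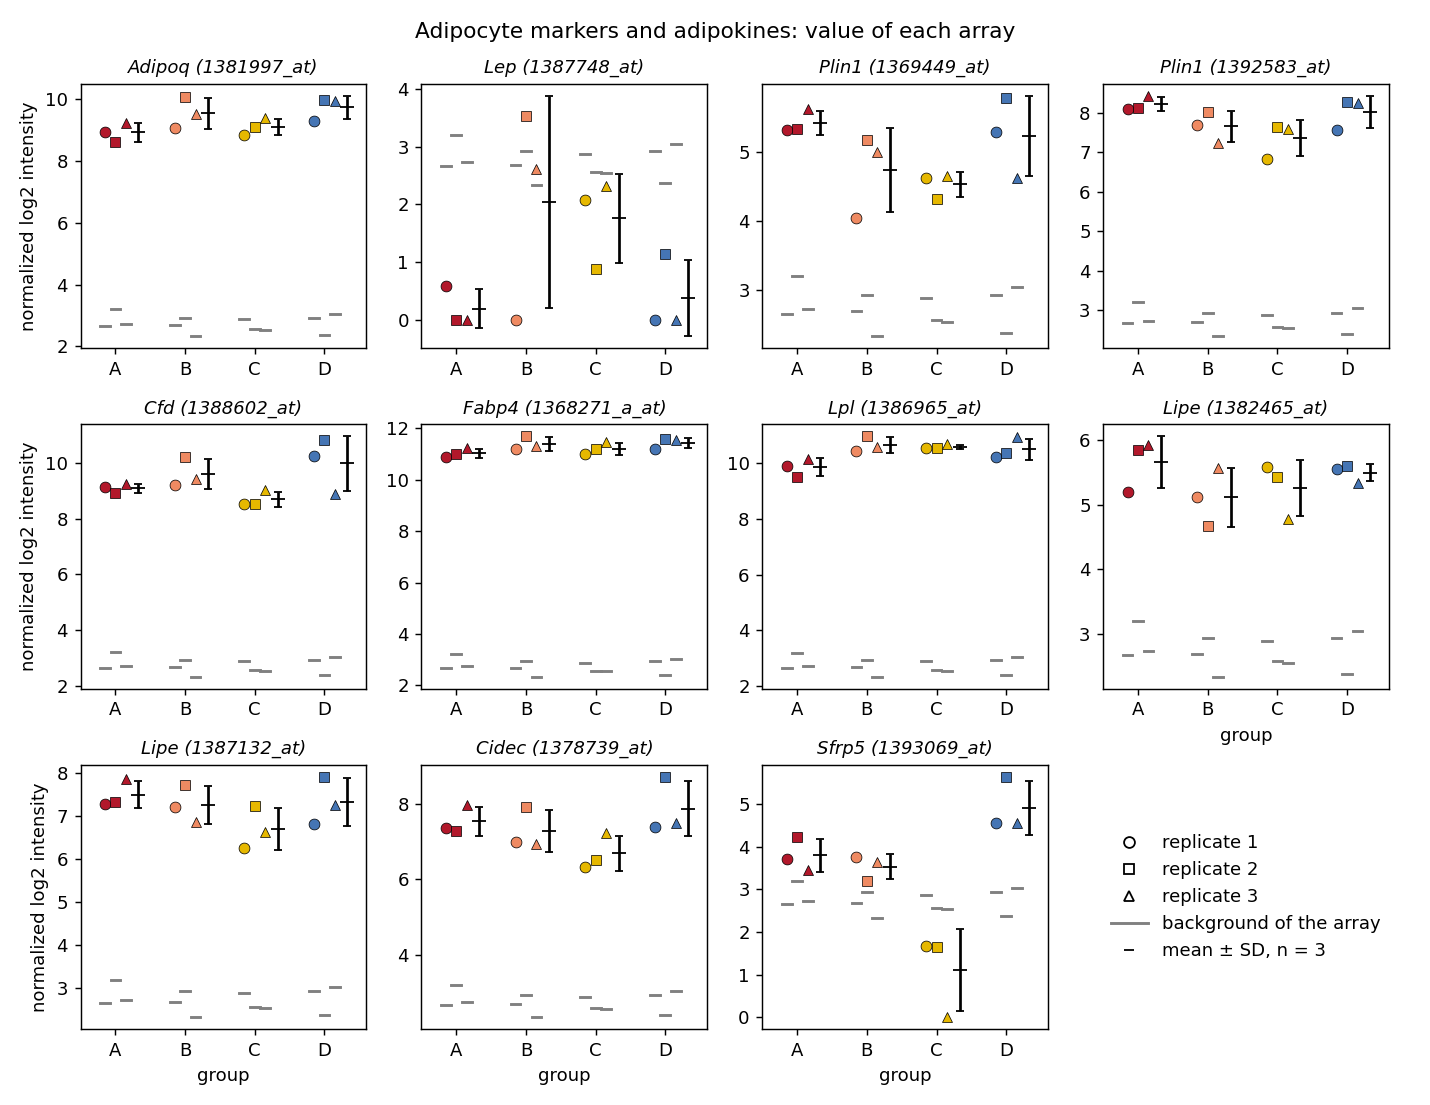
Normalized log2 intensity (vertical axis, a different range in each panel) of the 11 probe sets in each array of groups A, B, C and D (horizontal axis). Symbols are replicates, grey dashes the background of each array, and bars the mean ± SD (n = 3). Sfrp5 in group C lies under the background, and Lep is near or under it in all groups.

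Few of the fat cell genes passed the test, and all that did were lower in the CLA group than in group D. Adipoq and Lpl were lower in group A, Sfrp5 was lower in group C, and none passed in group B. In group A 2 of 11 probe sets were called lower and 0 higher, beside 10.2% and 10.1% of all probe sets. In group B 0 were called in either direction, beside 0.00966% lower and 0.00644% higher. In group C 1 was called lower and 0 higher, beside 0.029% and 0.0226%. At an unadjusted p under 0.05, 4 of 11 were lower in group A (14.8% of all probe sets), 1 in group B (7.2%) and 5 in group C (8.27%). At that threshold 0 were higher in groups A, B and C, beside 17%, 8.58% and 9.41% of all probe sets. The arrays of the CLA group lay wholly below those of group D for 3 probe sets in group A (14.6% of all), 1 in group B (7.92%) and 2 in group C (8.1%). The 11 probe sets had median differences of -0.35 (A), -0.37 (B) and -0.63 (C), beside 0.07, -0.04 and -0.04 over all probe sets. On the values as deposited the medians were -0.47, -0.85 and -1.33, beside shifts of -0.12, -0.55 and -0.70 over all probe sets. The median of the members, though not each member, thus lay below the general shift under both scalings.

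**Figure D2:**
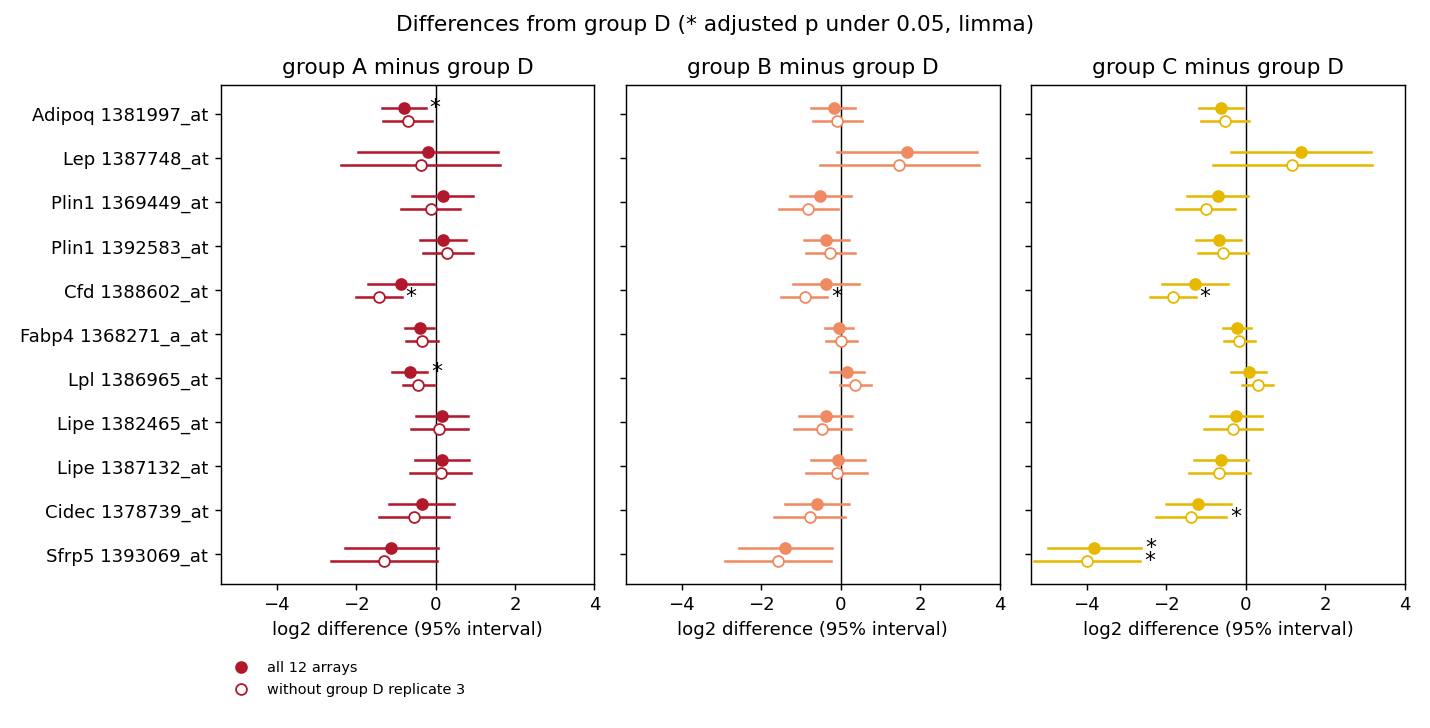
Log2 difference from group D (horizontal axis, 0 marked) with its 95% interval, for the 11 probe sets (vertical axis) in groups A, B and C. Filled circles are from all 12 arrays, open circles from 11 arrays without group D replicate 3, and asterisks mark an adjusted p under 0.05. With all arrays the marks fall on Adipoq and Lpl in group A and on Sfrp5 in group C, and without replicate 3 of group D on Cfd in all 3 groups and on Cidec and Sfrp5 in group C.

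Among the secreted products, adiponectin (Adipoq, 1381997_at), a hormone that raises insulin sensitivity and is made almost only by fat cells, was lowest in group A. It was at 8.95, 8.61 and 9.23 in group A, at 9.07, 10.07 and 9.52 in group B, at 8.85, 9.10 and 9.38 in group C, and at 9.30, 9.96 and 9.95 in group D. All arrays of group A lay below those of group D, the nearest pair being 9.23 and 9.30, while groups B and C each overlapped with group D. Adipoq fell by 0.80 in group A (SE 0.26), 1.74-fold, with an adjusted p of 0.0428 (limma). In group B the difference was -0.18 (adjusted p = 0.773, limma) and in group C -0.62 (adjusted p = 0.237, limma). By means the order was group A (8.93 ± 0.31), C (9.11 ± 0.27), B (9.55 ± 0.50) and D (9.73 ± 0.38; SD, n = 3 each), and the arrays of each neighbouring pair in this order overlapped. The call in group A was lost in 12 of 19 alternatives, among them both other scalings, and when A1, A2, B3, C1, C2, D2 or D3 was left out (replicates 1 and 2 of group A and so on). Over all 12 arrays left out in turn, the difference in group A stayed between -1.01 and -0.64 and its adjusted p between 0.0178 and 0.168.

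Leptin (Lep, 1387748_at), the hormone that reports the size of the fat stores to the brain, was hardly measured. It lay at 0.59, 0.00 and 0.00 in group A, at 0.00, 3.53 and 2.62 in group B, at 2.08, 0.88 and 2.32 in group C, and at 0.00, 1.15 and 0.00 in group D. Only replicates 2 and 3 of group B exceeded the background of their arrays. No comparison passed the test, and no fold is given for values under the background.

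Adipsin (Cfd, 1388602_at), which is complement factor D, the protease that starts the alternative pathway of complement and a main product of fat cells, showed a wide spread in group D. It was at 9.14, 8.92 and 9.23 in group A, at 9.19, 10.20 and 9.43 in group B, at 8.53, 8.53 and 9.01 in group C, and at 10.23, 10.81 and 8.90 in group D. Replicate 3 of group D was thus below every array of groups A and B, and the other arrays of group D were above every other array of the series. With all arrays Cfd was not called, at -0.88 in group A (SE 0.38, adjusted p = 0.132), -0.37 in group B (SE 0.38, adjusted p = 0.676) and -1.29 in group C (SE 0.38, adjusted p = 0.169; limma). Without replicate 3 of group D it fell by 1.42 in group A (SE 0.26, adjusted p = 0.00239), by 0.91 in group B (SE 0.26, adjusted p = 0.0324) and by 1.83 in group C (SE 0.26, adjusted p = 0.000525), with 2 arrays left in group D. For Cfd, replicate 3 was the lowest array of group D, so leaving it out by itself widens these differences. Without replicate 2 of group D the difference in group B was 0.04. The smooth muscle markers were also high in replicates 1 and 2 of group D and not in replicate 3, and their part in the result was not tested. Between the gavaged groups Cfd was higher in all arrays of group B than in any of group C, by 0.92, with an unadjusted p of 0.0329 and an adjusted p of 1 (limma). Of all probe sets 5.28% lay wholly higher in group B than in group C.

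Sfrp5 (1393069_at), a secreted inhibitor of Wnt ligands that mouse white fat produces, differed most from group D. It was at 3.71, 4.23 and 3.46 in group A, at 3.75, 3.20 and 3.64 in group B, at 1.68, 1.65 and 0.00 in group C, and at 4.55, 5.65 and 4.56 in group D. Every array of each CLA group lay below every array of group D, and the 3 arrays of group C were all within background. Sfrp5 in group C was at least 4.77-fold lower than in group D, with the mean of group C taken at the background of its arrays, and the fitted difference of -3.81 (SE 0.54, adjusted p = 0.0305, limma) is no measure of its size. In groups A and B the differences of -1.12 (SE 0.54, adjusted p = 0.177) and -1.39 (SE 0.54, adjusted p = 0.252) did not pass. Between B and C the gap was at least 1.82-fold, higher in group B (adjusted p = 0.402, limma). The call in group C held in 5 of 18 alternatives. When arrays were left out it was kept only without A2 or D3, and its adjusted p ranged from 0.000808 to 0.154 while the direction was kept in each case.

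Among the proteins that bring fatty acids into the cell, lipoprotein lipase (Lpl, 1386965_at) frees them from circulating triacylglycerol. With quantile normalization it was called lower in group A than in the gavaged group B, and with neither other scaling. Lpl was at 9.89, 9.52 and 10.15 in group A, at 10.42, 10.97 and 10.58 in group B, at 10.53, 10.55 and 10.68 in group C, and at 10.22, 10.36 and 10.93 in group D. All arrays of group A lay below all 9 others, and 21.1% of all probe sets lay wholly lower in group A than in group B. The fall in group A was 0.65 against group D (SE 0.20, 1.57-fold, adjusted p = 0.0381) and 0.80 against group B (SE 0.20, 1.75-fold, adjusted p = 0.00862; limma). Of all probe sets 14.5% were called lower and 16.8% higher in group A than in group B, and among the members Lpl was the 1 called lower, with 0 higher. The difference from group D in groups B and C was 0.16 and 0.08 (adjusted p = 0.752 and 0.872, limma), with 95% intervals of -0.28 to 0.59 and -0.36 to 0.52, and it was negative on values as deposited and with centring on the 75th percentile. The call against group D was lost in 13 of 19 alternatives and when A1, A2, B3, C1, C2, C3, D2 or D3 was left out, with adjusted p-values of 0.0239 to 0.162. The call against group B was kept whichever array was left out (adjusted p 0.00158 to 0.0464, difference -0.95 to -0.64) and was lost on values as deposited (-0.12, adjusted p = 0.799) and with the 75th percentile (-0.47, adjusted p = 0.0696).

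Fabp4 (1368271_a_at), the carrier of fatty acids in the fat cell cytosol, which endothelium and macrophages also make, varied little. It was at 10.89, 10.99 and 11.22 in group A, at 11.19, 11.70 and 11.31 in group B, at 10.99, 11.18 and 11.46 in group C, and at 11.19, 11.57 and 11.54 in group D. The group ranges all overlapped, and the difference from group D was -0.40 (A, adjusted p = 0.113), -0.03 (B, adjusted p = 0.947) and -0.22 (C, adjusted p = 0.519; limma). The 95% intervals were -0.76 to -0.04, -0.39 to 0.32 and -0.58 to 0.14.

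Among the proteins of the lipid droplet, no comparison passed with all arrays. For Plin1 and Cidec, as for Cfd and Sfrp5, the lowest mean was that of group C. Perilipin (Plin1), which coats the droplet and holds lipases off until the cell is stimulated, was at 8.11, 8.13 and 8.44 in group A, at 7.71, 8.03 and 7.25 in group B, at 6.83, 7.64 and 7.60 in group C, and at 7.56, 8.29 and 8.25 in group D by 1392583_at. By 1369449_at it was at 5.32, 5.33 and 5.62 in group A, at 4.04, 5.17 and 5.00 in group B, at 4.63, 4.32 and 4.65 in group C, and at 5.29, 5.79 and 4.63 in group D. Both probe sets put every array of group A above every array of group B, by 0.56 and 0.69 (adjusted p = 0.129 and 0.166, limma), and neither passed. They were the 2 of 11 member probe sets that did so, beside 26.5% of all probe sets. Against group D the 1392583_at values were 0.19 (A), -0.37 (B) and -0.68 (C), and those of 1369449_at 0.18, -0.51 and -0.70, with adjusted p-values between 0.217 and 0.781 (limma). In group A, Adipoq was thus called lower and Plin1 was not, although both mark fat cells, and the difference between these 2 changes was not tested.

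Cidec (1378739_at), which lets small droplets fuse into a large one, was at 7.37, 7.28 and 7.98 in group A, at 7.00, 7.94 and 6.95 in group B, at 6.33, 6.53 and 7.23 in group C, and at 7.41, 8.74 and 7.51 in group D. Group C lay wholly below group D, by 1.19 (SE 0.37, 2.28-fold), with an adjusted p of 0.177 (limma), and groups A and B overlapped with group D. Without replicate 3 of group D, Cidec fell by 1.38 in group C (SE 0.41, adjusted p = 0.0318, limma). Hormone-sensitive lipase (Lipe), which cleaves diacylglycerol once the cell is stimulated, was not called by either probe set. By 1387132_at it was at 7.28, 7.33 and 7.85 in group A, at 7.20, 7.72 and 6.85 in group B, at 6.25, 7.22 and 6.62 in group C, and at 6.81, 7.91 and 7.25 in group D. Its differences from group D were 0.16 (A), -0.38 (B) and -0.24 (C) by 1382465_at, and 0.16, -0.07 and -0.63 by 1387132_at, with adjusted p-values between 0.322 and 0.946 (limma).

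Without replicate 3 of group D, 1 of 11 probe sets was called lower in group A (Cfd), 1 in group B (Cfd) and 3 in group C (Cfd, Cidec and Sfrp5). The shares of all probe sets called lower in that fit were 10.9% (A), 7.82% (B) and 9.13% (C), so that the members' share was near the background in groups A and B. Adipoq and Lpl then lost their calls in group A, at -0.70 (adjusted p = 0.102) and -0.43 (adjusted p = 0.11; limma).

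Single pups stood out across the members. Replicate 2 of group D gave the highest value of the series in 5 of the 11 probe sets, replicate 2 of group B in 4 and replicate 3 of group A in 2, while replicate 1 of group C was lowest in 3. With each of the 9 genes taken relative to its average in the series, their mean per array was at -0.14, -0.24 and 0.05 in group A, at -0.18, 0.69 and 0.11 in group B, at -0.56, -0.43 and -0.32 in group C, and at 0.01, 0.81 and 0.19 in group D. By this mean the arrays of group C were the 3 lowest. That order rests on Sfrp5, counted in full although it lay within background there and at the floor in replicate 3. By the log2 of the summed intensity of the 9 genes, to which the dim genes add little, the order was another, with 12.14, 12.06 and 12.44 in group A, then 12.38, 13.02 and 12.53 in group B, then 12.17, 12.34 and 12.57 in group C, and 12.51, 13.00 and 12.78 in group D.

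Markers of other tissues around the node also differed between arrays. Of the 3 lists below, only the mesothelial one lay higher in all arrays of group D than in all others. For smooth muscle, only replicates 1 and 2 of group D lay above all other arrays. The 6 mesothelial markers, the lining of the mesentery, averaged -0.36 to -0.08 (A), -0.66 to -0.10 (B), -1.12 to -0.17 (C) and 0.30 to 1.67 (D) on the same centred scale. The 7 smooth muscle markers averaged -0.06 to 0.10 (A), -0.91 to -0.71 (B), -1.18 to -0.30 (C) and -0.23 to 2.55 (D). The 6 fibroblast markers averaged -0.15 to -0.07 (A), -0.34 to 0.07 (B), -0.37 to -0.02 (C) and 0.00 to 0.82 (D). All markers of these 3 lists were above background in group D. The log2 of the summed intensity was 8.41 to 8.51 (A), 8.04 to 8.28 (B), 7.73 to 8.18 (C) and 9.01 to 9.89 (D) for mesothelium, and for smooth muscle 10.64 to 10.78, 9.80 to 10.25, 9.64 to 9.94 and 9.97 to 12.78 in the same order. The 3′ to 5′ signal ratio of hexokinase, which grows as RNA degrades, was 2.84 to 4.96 (A), 1.62 to 3.24 (B), 1.82 to 2.62 (C) and 1.84 to 2.53 (D). The part of surrounding tissue and of RNA quality in the differences of the fat cell genes was not tested.

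**Figure D3:**
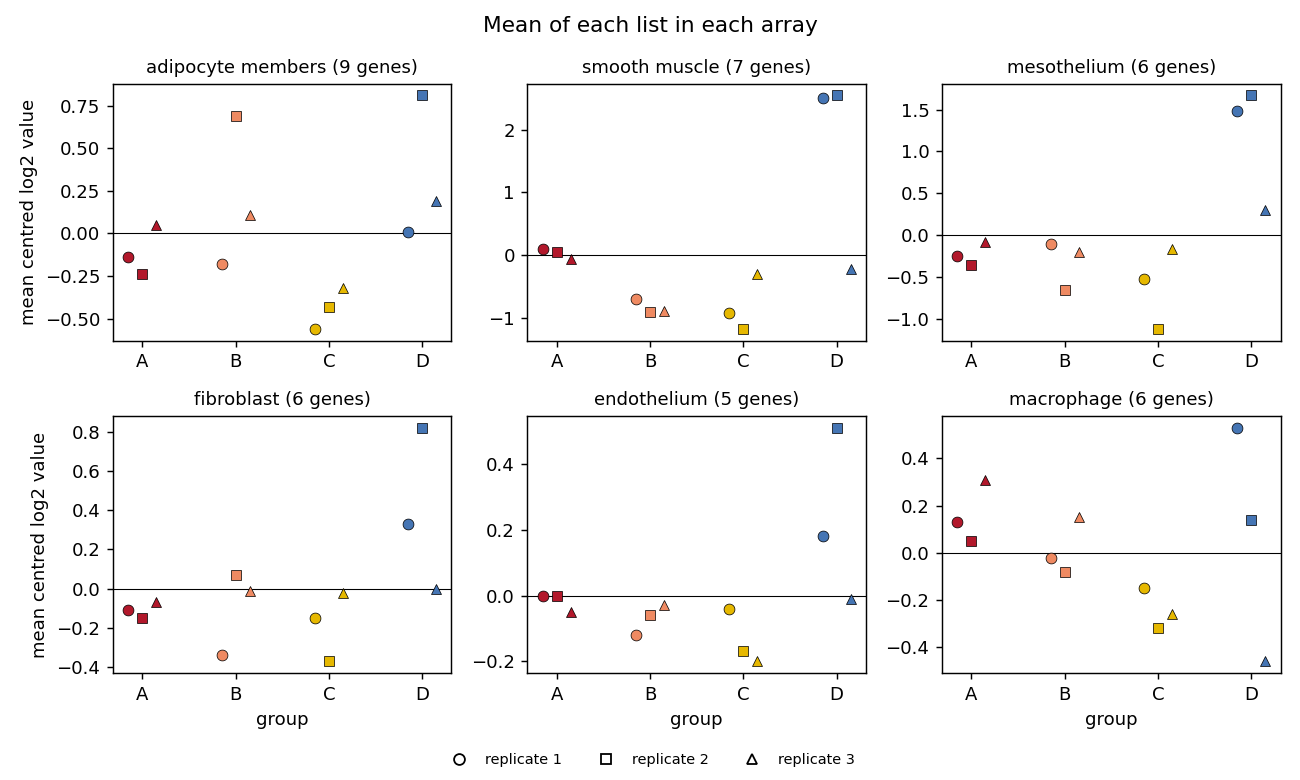
Mean centred log2 value (vertical axis) of the 9 fat cell genes and of 5 lists of markers in each array of groups A, B, C and D (horizontal axis), with symbols for replicates. Replicates 1 and 2 of group D lie at 2.50 and 2.55 for smooth muscle, apart from replicate 3 at -0.23. For the fat cell genes the arrays of group C lie at -0.56, -0.43 and -0.32, with Sfrp5 within background counted in.

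The probe sets whose pattern over the 12 arrays was most like that of Adipoq were sought among 17435 probe sets, by the root mean square distance of the centred log2 values. The nearest were Mgst1 at 0.175, which encodes a microsomal glutathione transferase, Pfkfb1 at 0.183, an enzyme that sets the level of fructose 2,6-bisphosphate, Cdo1 at 0.194, cysteine dioxygenase, Pparg at 0.199 and Acsl1 (1388153_at) at 0.205, which activates long-chain fatty acids. These distances are against an SD of 0.465 for Adipoq itself, and the 12 arrays are those of the tests above. Of the other members Fabp4 (0.235) and Lpl (0.319) were nearest, while both Plin1 probe sets were at 0.526 and 0.606.

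Beyond the members, 65 genes in 9 lists that work with them were examined, each by its brightest probe set. In group A 10 of the 65 were called lower and 11 higher, beside the 10.2% and 10.1% of all probe sets given above. In group B 0 were lower and 1 higher, and in group C 1 was lower and 0 higher. Without replicate 3 of group D the counts were 9 lower and 10 higher in group A, 13 lower and 3 higher in group B, and 24 lower and 4 higher in group C. On values as deposited, where all probe sets shifted as given above, 10 fell and 3 rose in group A (8.68% and 1.35% of all probe sets), in group B there were 5 below and 0 above group D (0.332% and 0.00966%), and for group C 46 below and 0 above it (22.6% and 0.158%). Of all probe sets, 10.9% (A), 7.82% (B) and 9.13% (C) were called lower without replicate 3 of group D. In the same fit 11%, 9.52% and 10.3% were called higher. These shares also stand beside the counts per list below. They include dim probe sets, whereas each related gene is given by its brightest, so the sets compared are not alike.

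Of the 9 transcription factors of fat cell formation, 1 fell and 1 rose in group A. Pparg, the receptor that drives the programme, was 5.29 ± 0.31 in group A and 6.44 ± 0.25 in group D (SD, n = 3 each), a fall of 1.15 (adjusted p = 0.00947), and lay at -0.61 in group B and -0.82 in group C (adjusted p = 0.3 and 0.183; limma). Cebpb, an early factor of that programme that is also induced in inflammation, rose by 0.76 in group A (adjusted p = 0.0194, limma). Without replicate 3 of group D, 2 of the 9 were called lower in group A (Pparg and Cebpd), 2 in group B and 5 in group C.

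The partners of Lpl changed in both directions in group A, with 3 of 8 lower and 3 higher. Cd36, the membrane transporter of fatty acids, averaged 6.89 ± 0.23 in group A and 9.10 ± 0.13 in group D (SD, n = 3 each) and fell by 2.20 (SE 0.20, 4.61-fold, adjusted p = 1.73e-05), against differences of 0.25 in group B and 0.38 in group C (adjusted p = 0.571 and 0.347; limma). Vldlr, a lipoprotein receptor, fell by 1.52 (adjusted p = 0.00479), and so did its other 3 probe sets, by 1.19 to 2.23. Acsl1 fell by 0.89 (1370939_at, adjusted p = 0.0221) and by 1.09 (1388153_at, adjusted p = 0.00526; limma), while its dimmest probe set, above background in 3 arrays, lay at 0.91. Angptl4, a secreted inhibitor of lipoprotein lipase, averaged 9.00 ± 0.20 in group A and 7.20 ± 0.66 in group D and rose by 1.81 (SE 0.26, 3.5-fold, adjusted p = 0.000465), with 1.19 in group B and 1.50 in group C (adjusted p = 0.162 and 0.0766; limma). Gpihbp1, which holds the lipase on the capillary wall, rose by 0.76 (adjusted p = 0.00455), and Slc27a1, a fatty acid transporter, by 0.46 (adjusted p = 0.0309; limma). Without replicate 3 of group D, Acsl1 by 1370939_at lost its call in group A (-0.59, adjusted p = 0.0512, limma), which left 2 lower and 3 higher, while group B held 2 falls and 1 rise and group C 3 falls and 1 rise, with Angptl4 the rise in both (1.43 and 1.74).

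Of 7 genes of triacylglycerol synthesis, Gpam, which adds the first acyl chain to glycerol phosphate, fell by 1.56 in group A (adjusted p = 0.00418, limma). Pck1, an enzyme on the route from pyruvate to glycerol phosphate in fat cells, averaged 8.89 ± 0.24 in group A and 7.36 ± 0.14 in group D and rose by 1.53 (adjusted p = 0.000105), and it was the 1 related gene that also rose in group B, by 1.57 (adjusted p = 0.0144; limma). Its difference in group C was 0.72 (adjusted p = 0.144, limma). Gpd1, which forms glycerol phosphate, averaged 7.91 ± 0.35 in group C and 9.21 ± 0.24 in group D and fell by 1.30 (1371363_at, adjusted p = 0.0305, limma), while its dimmer probe set lay at -1.25 (adjusted p = 0.195, limma). In group A the dimmer probe set (1369560_at) passed, at -1.38 (adjusted p = 0.0446), and the brightest did not, at -0.36 (adjusted p = 0.187; limma). Without replicate 3 of group D, group B held 1 fall and 1 rise, and group C 5 falls and 1 rise.

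Of 13 further genes of the lipid droplet and of lipolysis, 1 was lower and 3 were higher in group A. Abhd5, the coactivator of the first lipase, fell by 0.77 (adjusted p = 0.00442), and Mgll, the lipase of the last step, rose by 0.87 (adjusted p = 0.00432; limma). Bscl2 (seipin) rose by 0.44 (adjusted p = 0.0451, limma), a call that was lost without replicate 3 of group D (0.35, adjusted p = 0.0985, limma). The remaining call, Plin5 (adjusted p = 0.0175, limma), stood at log2 values of 2.99, 2.44 and 3.18 in group A and of 0.00, 1.08 and 0.65 in group D, above background in 2 arrays of group A, 1 of group C and 0 of groups B and D, so that no fold is given. With that replicate left out, 1 gene fell and 2 rose in group A, 1 fell and 1 rose in group B, and 4 fell and 1 rose in group C. Of 9 genes of fatty acid synthesis and glucose uptake 2 were lower and 0 higher in group A, namely Elovl6, an elongase, by 1.80 (adjusted p = 0.00705) and Acaca, which makes malonyl-CoA, by 0.87 (adjusted p = 0.044; limma). The call of Acaca was lost without replicate 3 of group D (-0.49, adjusted p = 0.104) and Scd, a desaturase, was called higher (1.69, adjusted p = 0.000748; limma), which made 1 lower and 1 higher in group A. The counts were then 2 lower in group B and 2 lower and 1 higher in group C.

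Of 5 adipokine receptors, the adiponectin receptor Adipor1 rose in group A by 0.43 (adjusted p = 0.0403, limma) and the others were not called. Its call was lost without replicate 3 of group D (0.37, adjusted p = 0.0872, limma), and Cdh13 was called lower in groups B and C. Of 6 other secreted products, Nampt (visfatin), made by many cell types, fell by 1.41 in group A (adjusted p = 0.000643, limma). Rarres2 (chemerin), Apln (apelin) and Lcn2 (lipocalin), 3 of the 6, were called lower in both groups B and C when replicate 3 of group D was left out. Of 6 listed genes of the alternative complement pathway, in which Cfd acts, 4 had a probe set assigned to them alone here (C3, Cfp, Cfi and C5). Cfp (properdin), which steadies the convertase of the pathway, rose by 0.53 in group A (adjusted p = 0.0167, limma). C5 was called lower there (adjusted p = 0.0284, limma). It was above background in only 2 of the 12 arrays and at the floor in all arrays of group A. No probe set was assigned to Cfb (complement factor B) alone here, so these calls do not describe the whole pathway. The paper, from the same arrays, lists Cfb as lower in every CLA group. Of the 4 relatives of Sfrp5, Sfrp1 rose in group A by 0.47 in its brightest probe set (1371861_at, adjusted p = 0.0284, limma), while its other probe sets lay at -0.16 and -0.17. It was called lower in groups B and C (-0.60 and -0.39) when replicate 3 of group D was left out.

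**Figure D4:**
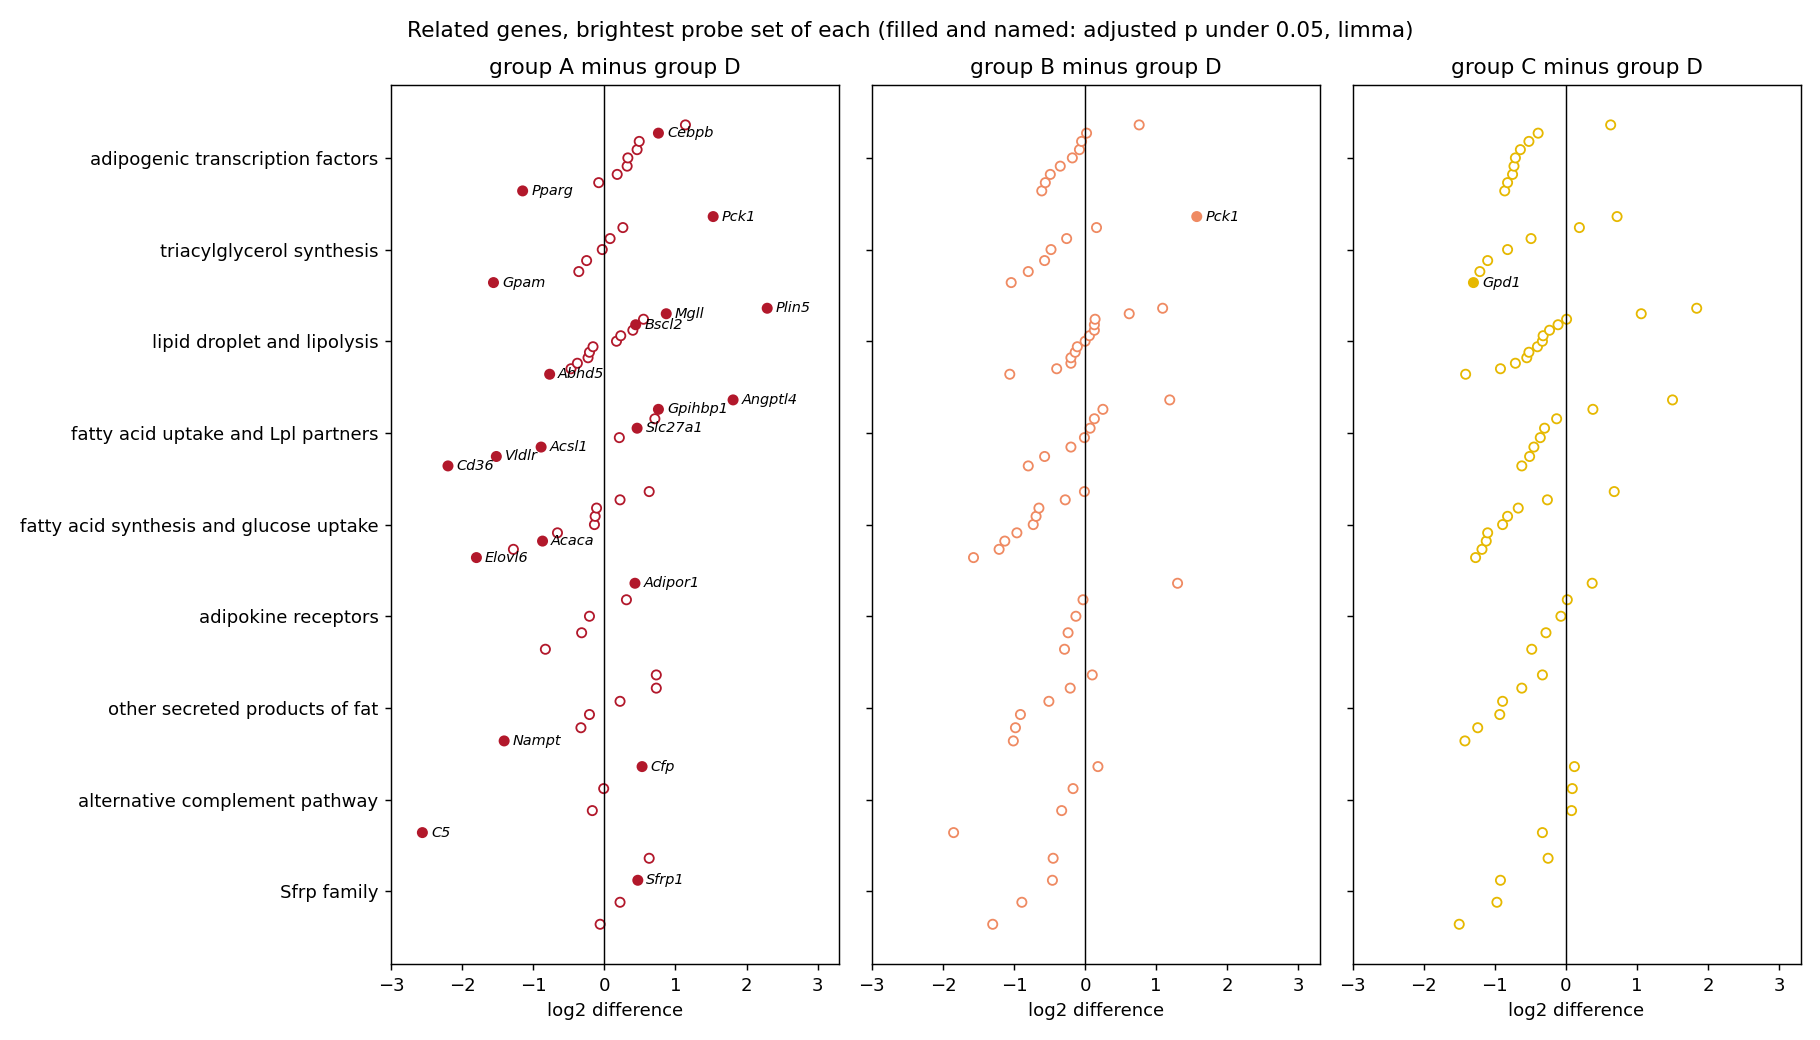
Log2 difference from group D (horizontal axis, 0 marked) of the 65 related genes in their 9 lists (vertical axis) in groups A, B and C, 1 point per gene. Filled, named points have an adjusted p under 0.05. Filled points lie on both sides of 0 in group A (10 lower, 11 higher), with 1 in each of groups B and C. Plin5 and C5 are plotted from values mostly within background.

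Between groups B and C, which differ in CLA during gestation, 0 of the 11 probe sets were called lower and 0 higher, beside 0% and 0.00322% of all probe sets. The median difference over the members was 0.31, beside -0.00 over all probe sets, and 10 of 11 were above 0. These 11 come from the same pups, so they are not separate results. By the mean of the 9 genes, replicate 2 of group B lay at 0.69 and replicates 1 and 3 at -0.18 and 0.11. Lep and Sfrp5 lay within background in group C.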

How the data were processed

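MLN mRNA was hybridised to Affymetrix Rat Genome 230 2.0 arrays, 12 in all. The authors deposited 1 signal intensity per probe set and array, on a linear scale, made with MAS5 per the submitters' processing notes and not scaled between arrays (array medians 19.3 to 38.5). The 30 zeros took the smallest positive value, log2 values were quantile normalized over the 31099 probe sets, and values under an intensity of 1 were raised to 1. The 57 control probe sets were then left out.

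The methods name no test. Groups were compared in R 4.3.3 by limma 3.58.1 (lmFit, then eBayes with trend), fitting a mean for each group over all 12 arrays, with two-sided tests and Benjamini-Hochberg adjustment over 31042 probe sets in each of 5 comparisons. The fit was tested on simulated data. With 3 against 3 arrays the smallest exact permutation p is 0.1, and the number of arrays limits the precision. The background is the 95th percentile of 27 probe sets for absent spikes. For a probe set within background on all arrays of a group, the bound on its fold takes, in each array, the higher of that background and its own value.

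All probe sets of the members were named, with the related genes that passed and the 5 probe sets nearest to Adipoq. The members and lists were chosen with earlier results of these data known, and the related lists were written from textbook knowledge. Symbols came from the platform annotation, updated to GRCr8 names. Alternative settings used the values as deposited or centred on the 75th percentile, a floor of 32, no probe sets of the dimmest 40%, no variance trend, only the 2 groups compared, a replicate block, an unadjusted p with a 2-fold difference, and each array left out. Counts of related genes under other scalings or without an array of group D, and Lpl between groups A and B under the alternatives, were added after seeing the data.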

Additional observations from a re-analysis of the deposited data

How the results depend on the processing

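Against group A's main count of 2 probe sets lower than in group D, 0 were called on values as deposited, with the 75th percentile, with a floor of 32, without the variance trend, with only the 2 groups, and with an unadjusted p and a 2-fold difference, and 0 to 2 with 1 array left out. In group B the count of 0 became 1 with an unadjusted p and a 2-fold difference, and was 0 to 1 with 1 array left out. In group C the count of 1 became 8 on values as deposited, where 22.6% of all probe sets were called lower, and 3 with an unadjusted p and a 2-fold difference. It became 0 with a floor of 32, without the dimmest 40% (which leaves out Sfrp5), without the trend and with only the 2 groups, and 0 to 3 with 1 array left out. For group A against group B, 1 lower became 0 on values as deposited and with the 75th percentile, 3 with the replicate block and 1 to 3 with 1 array left out, and 0 higher became 1 on values as deposited. For group B against group C, 0 higher became 1 with an unadjusted p and a 2-fold difference. Except for the construction named, the cause was not tested.

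Directions that turned were all of uncalled differences. On values as deposited they became -0.10 (Plin1 1369449_at, group A), -0.11 (Lipe 1382465_at, group A), -0.60 (Lpl, group B) and -0.74 (Lpl, group C), and with the 75th percentile -0.07 and -0.08 (Lpl, groups B and C). With 1 array left out the ranges were, in group A, -0.38 to 0.19 (Lep), -0.12 to 0.46 (Plin1 1369449_at), -0.05 to 0.32 (Plin1 1392583_at), -0.09 to 0.46 (Lipe 1387132_at) and -0.58 to 0.08 (Cidec). In group B they were -0.44 to 0.06 (Adipoq), -0.91 to 0.04 (Cfd), -0.19 to 0.07 (Fabp4), -0.00 to 0.37 (Lpl) and -0.32 to 0.23 (Lipe 1387132_at), and in group C -0.06 to 0.30 (Lpl) and -0.40 to 0.01 (Lipe 1382465_at).

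Deviations of arrays that share a replicate number correlated between -0.0152 and 0.0826. The labels state no pairing, and the numbers were not taken to pair the pups. Arrays with different numbers were not compared in this way, so a pairing is not excluded. With the replicate block, Fabp4 was lower in group A at an adjusted p of 0.0485 (limma).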
